A study of Homo sapiens with 10 samples.

Results

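Mature microRNAs (miRNAs) were compared between ES-2 cells depleted of IGF2BP1 and ES-2 cells depleted of IGF2BP2. ES-2 is an established human ovarian cancer cell line, and IGF2BP1 and IGF2BP2 are paralogous RNA-binding proteins. The libraries were 2 from cells given an siRNA pool against IGF2BP1 (siIGF2BP1) and 3 from cells given a pool against IGF2BP2 (siIGF2BP2), that is 5 of the 10 small RNA libraries of the study. The other 5 came from cells given control siRNA (siC, 2 libraries) or a pool against IGF2BP3 (siIGF2BP3, 3 libraries), and their values are given beside the comparison. The labels describe all samples as parental cells and name no time after transfection. The miRNAs compared were those with a mean normalised read count of at least 10 in both siIGF2BP1 and siIGF2BP2. This left 279 of the 2576 mature miRNAs in the table, of which 1196 were read at least once. A further 61 reached that mean in siIGF2BP1 alone and 10 in siIGF2BP2 alone, and these were left out. The lower of the group means was 10.1 for miR-628-5p and miR-937-3p and 10.2 for miR-185-3p, just inside the minimum. It was 9.91 for miR-140-5p, 9.73 for miR-940 and 9.27 for miR-2355-5p, just outside it.

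IGF2BP proteins bind mRNAs and can stabilise them, and IGF2BP1 is known to shield some of its target mRNAs from miRNA-directed repression. A miRNA is cut from a hairpin precursor by Drosha and Dicer, and 1 strand of the duplex is then loaded into an Argonaute protein. The other strand, here called the passenger arm where it is the rarer, is mostly degraded. The loaded miRNA finds its target mRNAs mainly through its seed, bases 2 to 8 from the 5′ end, so that miRNAs with the same seed can share targets. The question addressed here is which miRNAs differ in level between cells that lack one or the other paralog. The table holds no mRNA, so the depletion of IGF2BP1 and IGF2BP2 could not be read from these data.

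In the labels the siC and siIGF2BP1 samples carry the source name ES-2, and the siIGF2BP2 and siIGF2BP3 samples carry another. The comparison of siIGF2BP1 with siIGF2BP2 runs along this split of the libraries, and the siRNA target and the split cannot be told apart in it. Where siC and siIGF2BP3 values are given beside a result, they show on which side of the split a level lies. Recovered read totals were 1269743 and 1096008 in siIGF2BP1 and 697080, 495530 and 548109 in siIGF2BP2. The 279 miRNAs held 99.5% to 99.6% of the reads in siIGF2BP1 and 99.9% in each siIGF2BP2 library. Within groups the median SD of a miRNA's log2 level was 0.15 in siIGF2BP1 and 0.19 in siIGF2BP2. The labels do not state whether replicate libraries are from separate cultures. The p-values therefore describe the spread among these libraries, which may be technical.

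The mature sequences of the miRNAs on which the results turn are shown 5′ to 3′, from RefSeq (GRCh38.p14), with the seed in capitals. In all, 244 of the 279 miRNAs were matched to that table. The first set holds miRNAs that shared their seed with no other of these 244. All were higher in siIGF2BP1 except miR-577, which was lower.
miR-143-3p: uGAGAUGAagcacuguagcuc
miR-210-3p: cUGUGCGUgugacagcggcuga
miR-126-5p: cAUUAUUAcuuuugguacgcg
miR-335-3p: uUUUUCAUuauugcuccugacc
miR-592: uUGUGUCAauaugcgaugaugu
miR-129-5p: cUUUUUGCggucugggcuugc
miR-218-5p: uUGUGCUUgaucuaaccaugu
miR-9-5p: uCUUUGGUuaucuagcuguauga
miR-132-3p: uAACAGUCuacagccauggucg
miR-224-5p: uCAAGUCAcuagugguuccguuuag
miR-452-5p: aACUGUUUgcagaggaaacuga
miR-577: uAGAUAAAauauugguaccug

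The second set pairs miRNAs that share a seed and differ at a few bases, because within several such families the levels of the members differed in unlike ways between the knockdowns. Positions are counted from 1 at the 5′ end, and the base of the miRNA named first stands before the position. From miR-23a-3p to miR-23b-3p the shared length differs by U19A, and from miR-27a-3p to miR-27b-3p by C19U. From miR-146a-5p to miR-146b-5p it differs by G18A and U21C, and from miR-148b-3p to miR-148a-3p by U9C and C10U. From miR-181a-5p to miR-181d-5p it differs by A9U, C10U, C12U and A21G. From let-7a-5p it differs by U1A and U16C to let-7d-5p and by G11A and A19U to miR-98-5p. From miR-30e-5p to miR-30a-5p it differs by U13C. Reads of such near-identical miRNAs may be divided between them by the authors' counting, whose rules for mismatched or multiply placed reads no source used here gives.
miR-23b-3p: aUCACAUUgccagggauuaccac
miR-23a-3p: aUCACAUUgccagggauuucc
miR-27b-3p: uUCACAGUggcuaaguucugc
miR-27a-3p: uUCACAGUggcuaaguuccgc
miR-146a-5p: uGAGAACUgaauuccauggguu
miR-146b-5p: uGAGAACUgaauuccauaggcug
miR-148a-3p: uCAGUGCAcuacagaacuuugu
miR-148b-3p: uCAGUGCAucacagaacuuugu
miR-181a-5p: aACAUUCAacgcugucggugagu
miR-181c-5p: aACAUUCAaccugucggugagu
miR-181d-5p: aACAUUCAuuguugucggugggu
let-7a-5p: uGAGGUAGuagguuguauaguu
let-7d-5p: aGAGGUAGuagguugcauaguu
miR-98-5p: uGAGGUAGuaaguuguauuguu
miR-30a-5p: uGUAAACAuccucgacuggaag
miR-30e-5p: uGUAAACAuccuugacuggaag

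Most of the 279 miRNAs were at similar levels after either knockdown. The log2 difference (siIGF2BP1 minus siIGF2BP2) lay within 1 of 0 for 245 of them. By limma, at an adjusted p under 0.05 over the 889 miRNAs tested, 39 were higher in siIGF2BP1 (13.98% of the 279), where 11.8% of all tested miRNAs were. A further 15 were lower (5.38%), where 1.69% of all tested miRNAs were, and no miRNA outside the 279 was called lower. In either direction 13.5% of all tested miRNAs were called. The remaining 225 did not pass, and 91 had an unadjusted p under 0.05. The median log2 difference was 0.13 over the 279 and 0.22 over all tested. The larger differences were on the higher side: 23 of the 39 exceeded 1 on the log2 scale and 9 exceeded 2, against 2 and 0 of the 15.

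**Figure D1:**
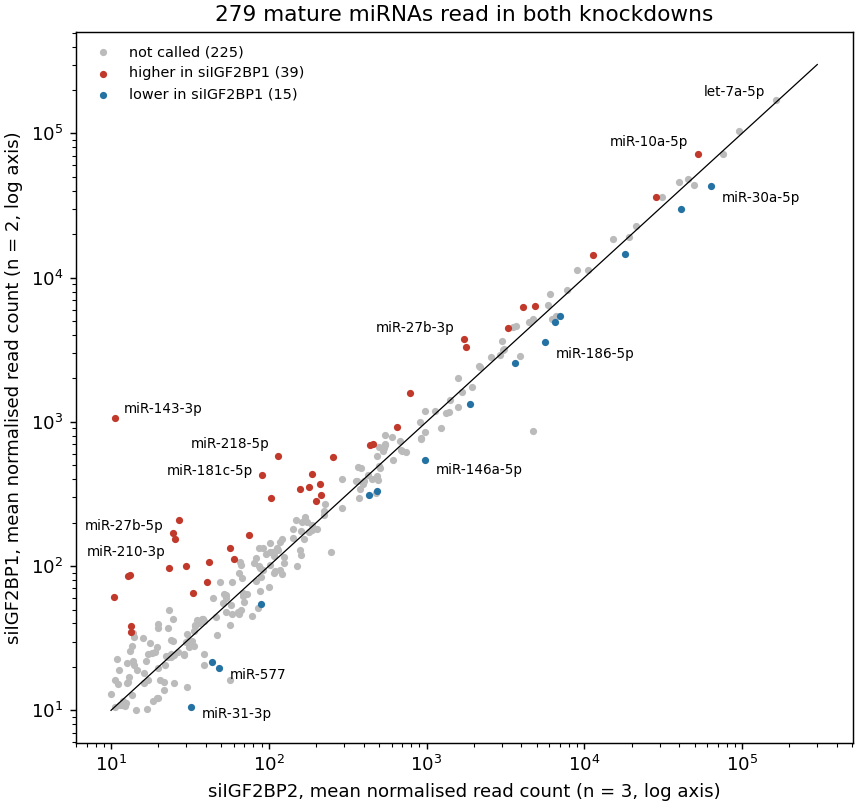
Mean normalised read count of each of the 279 miRNAs in siIGF2BP2 (x axis, log scale) and siIGF2BP1 (y axis, log scale), with the 39 called higher in red, the 15 called lower in blue and a diagonal line of equal levels. Most points lie near the diagonal, and miR-143-3p, at 10.6 against 1064, lies farthest above it.

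The numbers in each direction depended on the scaling. Rescaling by TMM factors gave 29 higher and 18 lower, by median of ratios 26 and 24, and by library total 35 and 18. On recovered reads, edgeR gave 29 and 27 and DESeq2 gave 25 and 24. Rescaling by the upper quartile moved the median of the 279 from 0.13 to -0.56 and gave 11 higher and 101 lower. That quartile was taken over all miRNAs with a read in any library. It lay at 16.2 and 18 reads in the siIGF2BP1 libraries and at 5 or 6 reads in the siIGF2BP2 libraries. The median of the 279 also fell in the others, to 0.05 (TMM), -0.03 (median of ratios), 0.08 (library total), -0.07 (edgeR) and -0.04 (DESeq2). Of the 54 calls, 26 passed in the same direction under all 6 of these scalings and tools, namely 11 of the 39 higher and all 15 of the lower. All 6 shift differences downward, which keeps lower calls and removes higher ones. The 15 of 15 therefore does not show that the lower calls are robust. Leaving out any 1 of the 5 libraries kept 18 calls, of which 14 were higher and 4 lower. The 11 calls that passed in all of these settings were 7 higher (miR-23b-3p, miR-218-5p, miR-592, miR-210-3p, miR-126-5p, miR-27b-5p and miR-143-3p) and 4 lower (miR-3689f, miR-146a-5p, miR-186-5p and miR-30a-5p).

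**Figure D2:**
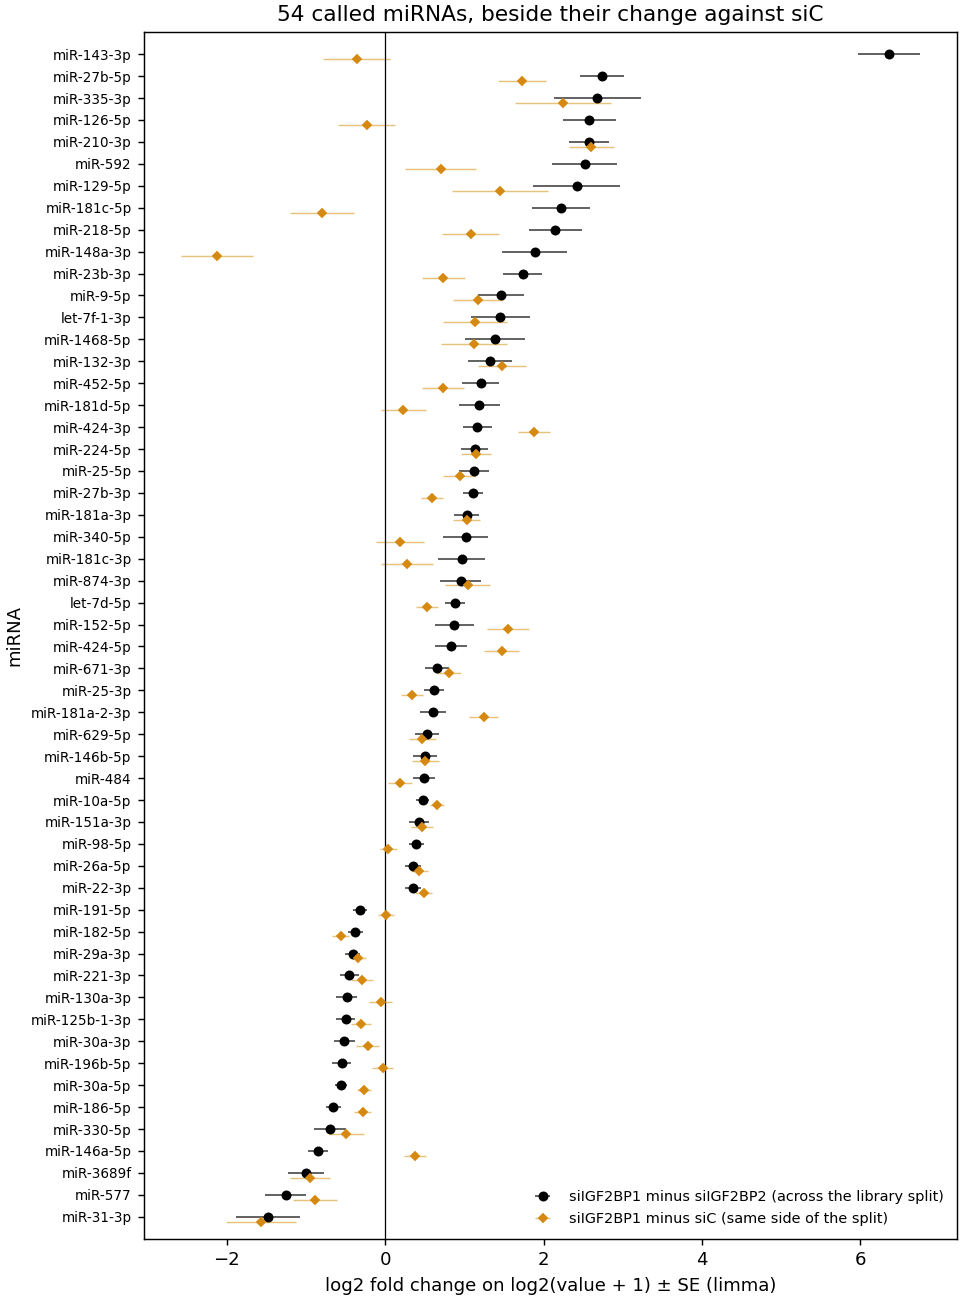
Log2 difference (x axis) with its standard error (bars) for the 54 called miRNAs (y axis), as siIGF2BP1 minus siIGF2BP2 (black circles) and, beside it, as siIGF2BP1 minus siC (orange diamonds). The circles run from 6.36 for miR-143-3p down to -1.48 for miR-31-3p, and the larger values are on the higher side.

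Both arms of miR-27b and miR-23b-3p, which come from 1 cluster with miR-24-1, were higher in siIGF2BP1. MIR27B lies at chr9:95085445-95085541 on the plus strand (GRCh38.p14) and MIR23B at chr9:95085208-95085304, both in an intron of C9orf3 in GENCODE 29. The miR-27b-5p level was 174 and 164 in siIGF2BP1 against 28.3, 24.8 and 20.7 in siIGF2BP2. It was 57.7 and 43.9 in siC and 23.9 to 40.4 in siIGF2BP3, so that both siIGF2BP1 libraries were above every other library. The log2 difference was 2.74 ± 0.28 (SE), with a limma adjusted p of 2.53e-05. The guide arm miR-27b-3p, which is known to target lipid metabolism mRNAs, was at 3966 and 3509 against 1821, 1758 and 1604. Its siC values were 2543 and 2419 and its siIGF2BP3 values 1062 to 1403. The difference was 1.11 ± 0.13 (adjusted p = 8.1e-05), and under upper-quartile rescaling it was 0.42, which did not pass. From the same cluster, miR-23b-3p was at 104 and 97.0 against 25.5, 34.4 and 29.4. Its siC values, 51.1 and 70.5, lay between the knockdowns, and its siIGF2BP3 values of 20.0 to 23.7 lay below both. The difference was 1.74 ± 0.25 (adjusted p = 0.000418). The paralogs from chromosome 19 did not pass: miR-27a-3p differed by -0.20 (adjusted p = 0.400) and miR-23a-3p by -0.21 (adjusted p = 0.501). Summed over each seed, the log2 ratio of the means was 0.68 for miR-27a-3p with miR-27b-3p and 0.02 for miR-23a-3p with miR-23b-3p. The cluster's miR-24-3p, which an identical copy on chromosome 19 also encodes, differed by -0.27 (adjusted p = 0.561).

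The hypoxia-induced miR-210-3p was at 144 and 163 in siIGF2BP1 and at 28.3, 28.6 and 19.0 in siIGF2BP2. It was at 24.7 and 23.95 in siC and 18.9 to 20.2 in siIGF2BP3, so the siIGF2BP1 libraries alone were high. The log2 difference was 2.57 ± 0.26 (adjusted p = 2.35e-05), and against siC, which shares its source name and uses the same siIGF2BP1 libraries, it was 2.60 (adjusted p = 0.0003). MIR210 lies at chr11:568089-568198 on the minus strand (GRCh38.p14), in an intron of MIR210HG. The other arm, miR-210-5p, was not among the 279.

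Both arms of miR-424, from a cluster with miR-503 and miR-450 in MIR503HG on the X chromosome (MIR424 at chrX:134546614-134546711, minus strand, GRCh38.p14), were higher in siIGF2BP1. The miR-424-3p level was 598 and 546 against 259, 271 and 235, with siC at 129 and 186 and siIGF2BP3 at 125 to 162. The difference was 1.16 ± 0.19 (adjusted p = 0.000846). For miR-424-5p, a seed mate of the cell-cycle regulators miR-15 and miR-16, the levels were 389 and 355 against 163, 235 and 235, with siC at 124 and 144. The difference was 0.84 ± 0.20 (adjusted p = 0.0145), and without siIGF2BP1 replicate 1 or replicate 2 the adjusted p was 0.143 or 0.0908. All 7 measured members of the miR-424, miR-503, miR-542 and miR-450 cluster had a positive difference, with a median of 0.67 beside 0.13 over the 279, but the 5 besides miR-424 did not pass. Among the seed mates of miR-424-5p, the far more abundant miR-16-5p differed by 0.15 (adjusted p = 0.520) and miR-15b-5p by -0.32 (adjusted p = 0.370). Upper-quartile rescaling left the cluster's median at 0.02 and neither miR-424 arm passed under it.

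The neighbours miR-224-5p and miR-452-5p, from an intron of GABRE on the X chromosome, were both higher. The miR-224-5p levels were 366 and 324 against 183, 155 and 135, with siC at 150 and 160 and siIGF2BP3 at 112 to 125. The difference was 1.13 ± 0.17 (adjusted p = 0.000536). For miR-452-5p the levels were 157 and 108 against 58.0, 63.0 and 48.3, a difference of 1.20 ± 0.24 (adjusted p = 0.00414) that did not pass without siIGF2BP1 replicate 1 (adjusted p = 0.0676). Its siC values were 80.8 and 75.9 and its siIGF2BP3 values 42.6 to 59.9. The siIGF2BP1 levels of this pair thus lay above those of all 3 other groups. The CREB-induced miR-132-3p followed the same order, at 102 and 111 against 43.9, 45.8 and 36.3, with siC at 29.7 and 47.9. Its difference was 1.33 ± 0.28 (adjusted p = 0.00584), and 1.27 without siIGF2BP1 replicate 2 (adjusted p = 0.0817). Under upper-quartile rescaling none of these 3 passed.

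**Figure D3:**
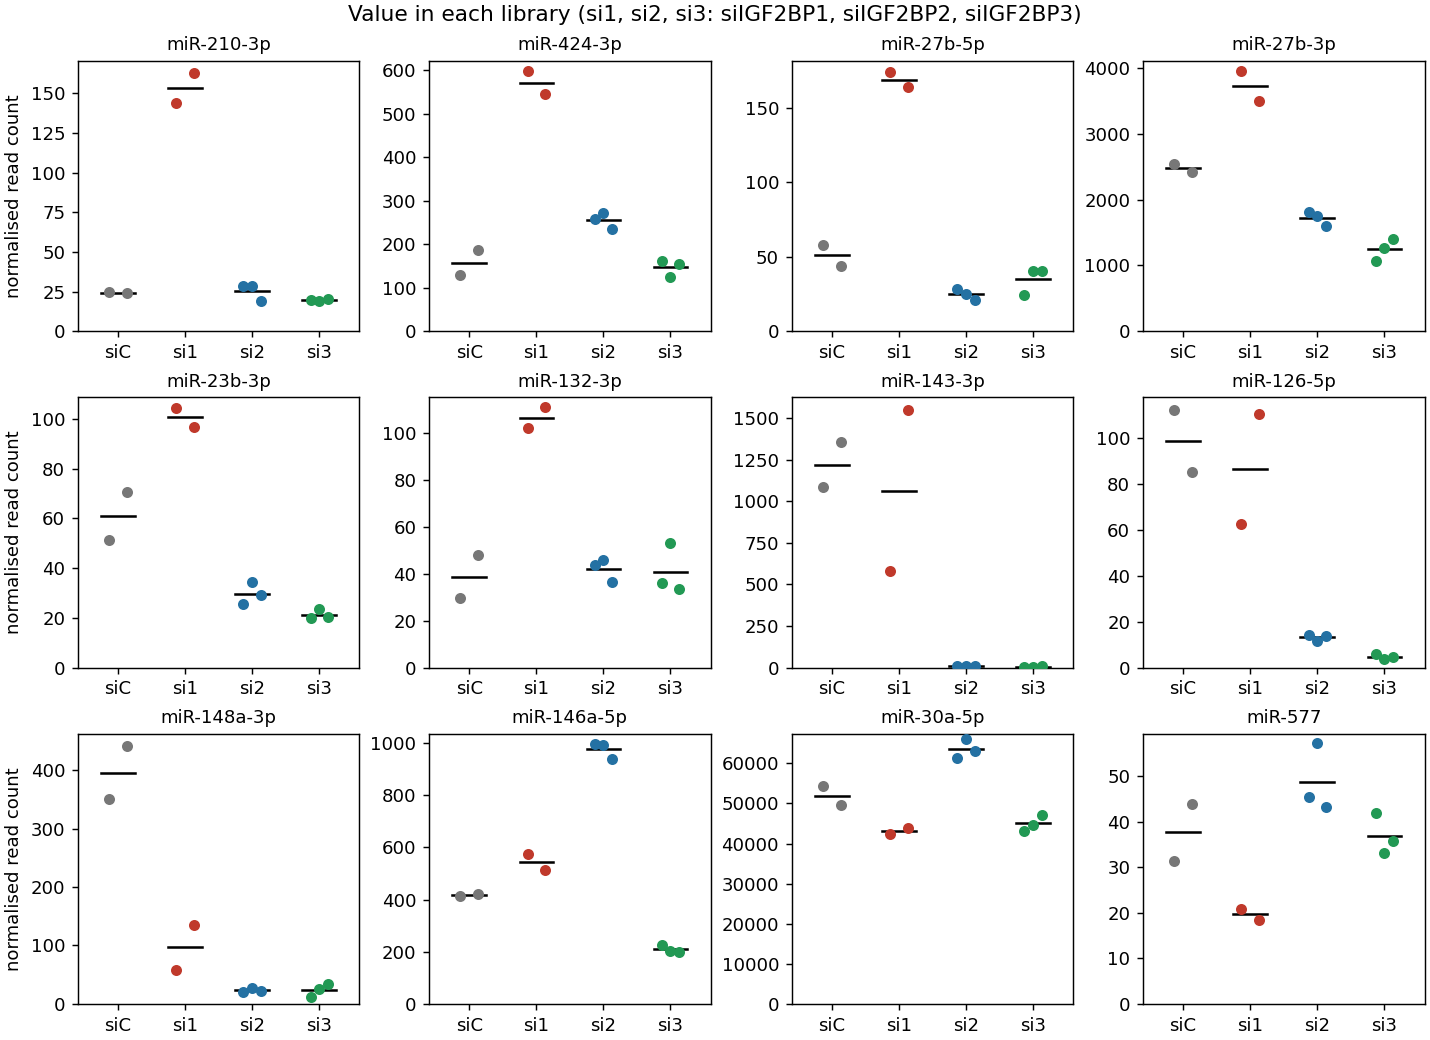
Levels of 12 miRNAs as normalised read counts (y axes, from 0) in siC and the siIGF2BP1 (si1), siIGF2BP2 (si2) and siIGF2BP3 (si3) groups (x axes), with 1 point per library and a black line at each group mean. The siIGF2BP1 libraries alone are high for miR-210-3p, at 144 and 163, and the siC libraries are also high for miR-143-3p, at 1089 and 1355.

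A second set of miRNAs was high in both groups with the source name ES-2 and low in both others. The largest difference of all was that of miR-143-3p, a miRNA of smooth muscle and fibroblasts, from an exon of CARMN (MIR143 at chr5:149428918-149429023, plus strand, GRCh38.p14). Its levels were 579 and 1548 in siIGF2BP1 against 9.90, 11.5 and 10.4 in siIGF2BP2. They were 1089 and 1355 in siC and 3.55 to 8.32 in siIGF2BP3. The siIGF2BP2 mean of 10.6 was just above the minimum of 10. With 1 read worth 1.41 to 1.91 in siIGF2BP2, these levels rest on few reads, and so does the fold below. The mean in siIGF2BP1 was 101-fold that in siIGF2BP2, a log2 difference of 6.36 ± 0.39 (adjusted p = 4.51e-07), while the difference from siC was -0.36 (adjusted p = 0.828). The difference was 5.65 without siIGF2BP1 replicate 2 (adjusted p = 0.000235) and 7.07 without replicate 1 (adjusted p = 7.32e-05). Of the 5 measured members of the list of mesenchymal miRNAs, miR-143-3p alone was called, and the list median was 0.02. The other 4, miR-199a-3p (-0.0065), miR-199b-3p (0.022), miR-199b-5p (-0.073) and miR-199a-5p (0.31), did not pass. Levels of miR-143-3p were high and overlapped in siC and siIGF2BP1, and were low in siIGF2BP2 and siIGF2BP3.

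The endothelial miRNA miR-126-5p, from an intron of EGFL7 (MIR126 at chr9:136670602-136670686, plus strand, GRCh38.p14), had the same order. Its levels were 62.7 and 110 against 14.1, 11.5 and 13.8, with 112 and 85.2 in siC and at most 5.99 in siIGF2BP3. It differed by 2.58 ± 0.33 (adjusted p = 0.000188). The endothelial list held 2 entries, both with a read in every library of these groups, whose summed level was 81.9 and 151 in siIGF2BP1 and 13.4 to 17.3 in siIGF2BP2. For miR-592, from an intron of GRM8, the levels were 51.4 and 70.5 against 9.90, 5.73 and 15.5, with siC at 34.6 and 38.6 and siIGF2BP3 at 5.99 to 11.9. The difference was 2.52 ± 0.41 (adjusted p = 0.000965). With 1 read worth 1.41 to 1.91 in siIGF2BP2, the levels of miR-126-5p and miR-592 there also rest on few reads. Some markers of other cells moved with this split, and others did not. The list of 55 imprinted 14q32 miRNAs, none of which met the minimum in both groups, took 0.173% and 0.260% of the reads in siIGF2BP1, 0.443% and 0.202% in siC, and 0.00115% to 0.00182% in siIGF2BP2. The 8 blood cell miRNAs together took 0.0439% and 0.0681% in siIGF2BP1 and 0.0440% to 0.0642% in siIGF2BP2, and leukocyte miR-142-5p, at 419 and 375 against 410, 556 and 502, made up most of that in each of the 5 libraries. Red cell miR-451a moved with the split, at 7.23 and 213 in siIGF2BP1 and 67.6 and 660 in siC against 0, 1.91 and 0 in siIGF2BP2 (adjusted p = 0.0183). Red cell miR-144-3p did too, at 2.41 and 18.5, and 11.5 and 62.5 in siC, against 0 in each siIGF2BP2 library (adjusted p = 0.0276), while miR-486-5p was at 0 in all 5. Neural miR-124-3p was at 16.9 and 48.5 (adjusted p = 0.000144) and the endocrine miR-375 at 12.9 and 30.0 (adjusted p = 0.000832), again against 0 in each siIGF2BP2 library. Their siC values were 18.1 and 42.6, and 335 and 89.2. The 10 muscle, liver and neural miRNAs they were listed with took 0.214% and 0.246% in siIGF2BP1 and 0.202% to 0.243% in siIGF2BP2. Most of that was miR-7-5p, at 1347 and 1170 against 1320, 1630.5 and 1770. Of the 3 in that list that met the minimum, 1 was higher and 2, miR-7-5p and miR-128-3p, did not pass. The part of these miRNAs in the differences was not tested. Epithelial miR-200 miRNAs took at most 0.00121% in any of the 5 libraries.

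In the miR-181 family, whose 5p arms share the seed ACAUUCA and are known regulators of lymphoid development, 5 of 7 measured members were higher and none lower in limma. In edgeR and in DESeq2 3 of the 7 were called, without miR-181c-3p (adjusted p = 0.0696 and 0.295) and miR-181a-2-3p (0.059 and 0.0981), neither of which passed under TMM (0.076 and 0.0639), median-of-ratios or upper-quartile rescaling either. The median difference was 0.97 beside 0.13 over the 279, and 0.28 under upper-quartile rescaling. The pair from an intron of NANOS3 on chromosome 19 had its siC values on the siIGF2BP1 side. The miR-181c-5p levels were 386 and 465 against 83.5, 103 and 84.6, with siC at 407 and 1336 and siIGF2BP3 at 47.9 to 66.6. The difference was 2.22 ± 0.37 (adjusted p = 0.00107), and 2.09 without siIGF2BP1 replicate 2 (adjusted p = 0.056). Its neighbour miR-181d-5p was at 363 and 508 against 192, 168 and 204, a difference of 1.19 ± 0.26 (adjusted p = 0.00804) that was 0.95 without siIGF2BP1 replicate 2 (adjusted p = 0.17). It was at 257 and 520 in siC and 140 to 181 in siIGF2BP3. The abundant guide arm miR-181a-5p did not pass, at 16747 and 21341 against 20967, 17449 and 19596 (-0.03 ± 0.12, adjusted p = 0.952). Its passenger arm miR-181a-3p passed, at 1460 and 1733 against 937, 718 and 703 (1.03 ± 0.15, adjusted p = 0.000536), and was at 838 and 724 in siC. The other passenger arm, miR-181a-2-3p, was at 608 and 788 against 490, 445 and 433 (0.60 ± 0.16, adjusted p = 0.0276), and at 0.42 without siIGF2BP1 replicate 2 (adjusted p = 0.251). Its difference was -0.09 under upper-quartile rescaling. Because miR-181a-5p and miR-181b-5p made up most of the family, the summed level of the seed was 28108 and 34341 against 30829, 26199 and 28926, which overlapped.

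For miR-148a-3p, known from liver and B cells, the siC values lay outside the range of both knockdowns. Its levels were 58.6 and 136 in siIGF2BP1 against 21.2, 26.7 and 22.4 in siIGF2BP2, with 350 and 441 in siC and 11.97 to 34.5 in siIGF2BP3. The knockdowns differed by 1.89 ± 0.41 (adjusted p = 0.00804), by 1.29 without siIGF2BP1 replicate 2 (adjusted p = 0.182) and by 2.49 without replicate 1 (adjusted p = 0.0151). Against siC, siIGF2BP1 was lower by a log2 difference of -2.12 (adjusted p = 0.0263). The abundant seed mate miR-148b-3p did not pass, at 1744 and 1765 against 2022, 1736 and 2069, and the seed sum had a log2 ratio of -0.06.

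Some called miRNAs differed widely between the siIGF2BP1 replicates. Of the 279 miRNAs, 9 differed more than 2-fold between these replicates, of which 8 were higher in replicate 2, and 4 of the 9 were called. The neural miRNA miR-129-5p was at 61.1 and 353 against 29.7, 24.8 and 25.9, with siC at 59.4 and 47.9. Its difference, 2.42 ± 0.55 (adjusted p = 0.0104), was 1.16 without siIGF2BP1 replicate 2 (adjusted p = 0.144) and 3.68 without replicate 1 (adjusted p = 0.00107). The miR-218-5p level, from introns of SLIT2 and SLIT3, was 308 and 858 against 117, 111 and 117, with siC at 277 and 213, a difference of 2.15 ± 0.33 (adjusted p = 0.000721). It passed without siIGF2BP1 replicate 2, at 1.41 (adjusted p = 0.0107), and without replicate 1, at 2.89 (adjusted p = 0.000335). Neural miR-9-5p, at 213 and 384 against 103, 105 and 102, differed by 1.46 ± 0.29 (adjusted p = 0.00425) and by 1.03 without siIGF2BP1 replicate 2 (adjusted p = 0.12). Its siC values of 181 and 87.8 lay on either side of siIGF2BP2, and its siIGF2BP3 values of 166 to 187 lay above siIGF2BP2. In the opposite order, miR-335-3p, from an intron of the imprinted gene MEST, was at 105 and 66.1 against 17.0, 7.64 and 13.8, with siC at 8.25 and 33.3 and siIGF2BP3 at 3.99 to 9.47. The siIGF2BP2 levels of miR-335-3p rest on few reads. Its difference was 2.68 ± 0.55 (adjusted p = 0.00565), and without siIGF2BP1 replicate 1 or 2 the adjusted p was 0.125 or 0.0547.

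Among the abundant miRNAs the differences were small. Of the 10 with the highest mean over the 5 libraries, miR-10a-5p was higher, miR-30a-5p and miR-221-3p were lower, and 7 did not pass. Those 7 were miR-21-5p, let-7a-5p, miR-100-5p, miR-92a-3p, let-7i-5p, miR-222-3p and let-7f-5p. The HOX-encoded miR-10a-5p was at 73100 and 71828 against 55346, 50465 and 50891, with siC at 44432 and 47730 and siIGF2BP3 at 38203 to 42457. Both siIGF2BP1 libraries were thus above every other library. The difference was 0.47 ± 0.08 (adjusted p = 0.00175), and -0.22 under upper-quartile rescaling. The growth-associated miR-21-5p was at 104454 and 104483 against 86806, 98995 and 99613 (0.14 ± 0.09, adjusted p = 0.415). For miR-92a-3p, of the miR-17-92 cluster, the ranges overlapped (-0.06 ± 0.11, adjusted p = 0.795), and 0 of 9 members of that cluster passed in limma, edgeR or DESeq2, with 1 at an unadjusted p under 0.05. Smaller differences passed for miR-22-3p (0.35 ± 0.10, adjusted p = 0.0319), a tumour-suppressive miRNA, and miR-26a-5p (0.35 ± 0.10, adjusted p = 0.0296), which targets EZH2. Neither passed under TMM, median-of-ratios or upper-quartile rescaling, in edgeR or in DESeq2, or without any 1 of the 5 libraries (adjusted p from 0.0504 to 0.281 for miR-22-3p and from 0.0535 to 0.174 for miR-26a-5p).

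The let-7 family represses growth-promoting mRNAs that include IGF2BP mRNAs and HMGA2. All 9 members met the minimum, 2 were higher, none was lower and 8 had a positive difference, with a median of 0.29 beside 0.13 over the 279. The median was -0.41 under upper-quartile rescaling. The called members were let-7d-5p, at 3524 and 3069 against 1927, 1837 and 1602, and miR-98-5p, at 6830 and 5963 against 4809, 5109 and 4634. For let-7d-5p siC was at 2281 and 2262, between the knockdowns, and the difference was 0.88 ± 0.13 (adjusted p = 0.00045). For miR-98-5p the difference was 0.40 ± 0.10 (adjusted p = 0.0155), with adjusted p of 0.135 without siIGF2BP1 replicate 1 and 0.0661 without siIGF2BP2 replicate 3. It also missed the threshold under TMM (0.0798), median-of-ratios (0.164) and upper-quartile (0.217) rescaling, in edgeR (0.137) and in DESeq2 (0.128). Both tools called 1 of the 9, let-7d-5p. The siC and siIGF2BP3 values of miR-98-5p were 5529 to 6313, and the means of both groups lay nearer siIGF2BP1. The dominant let-7a-5p was at 188859 and 151964 against 172566, 167016 and 154817, ranges that overlapped (0.04 ± 0.12, adjusted p = 0.893). The next in abundance, let-7i-5p and let-7f-5p, did not pass (0.21, adjusted p = 0.112, and 0.21, adjusted p = 0.252). Summed over the seed, the family was at 315394 and 269097 against 276756, 268292 and 256058. Of the 8 let-7 passenger arms measured, let-7f-1-3p was called, at 38.6 and 37.9 against 12.7, 13.4 and 13.8 (1.46 ± 0.37, adjusted p = 0.0194). It did not pass without siIGF2BP1 replicate 1 (adjusted p = 0.132), siIGF2BP1 replicate 2 (0.123) or siIGF2BP2 replicate 1 (0.0511), nor in DESeq2 (0.128). Its siC values were 26.4 and 10.6 and its siIGF2BP3 values 16.6 to 26.03.

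**Figure D4:**
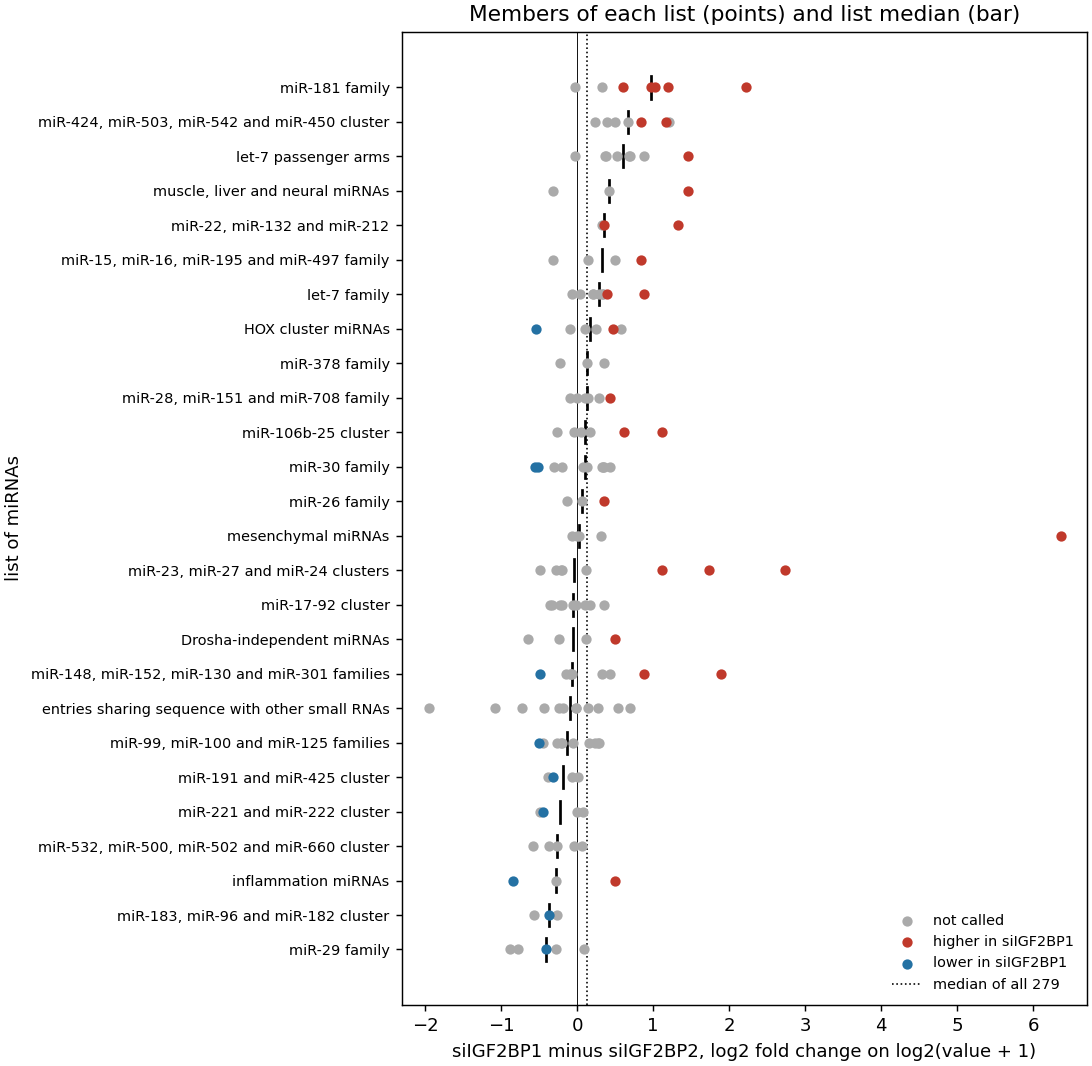
Log2 difference of siIGF2BP1 minus siIGF2BP2 (x axis) of each measured miRNA in the lists with at least 3 measured members (y axis, ordered by median). Points are miRNAs, red where called higher and blue where called lower, short black lines are list medians, and the dotted line is the median of the 279, 0.13. The miR-181 list lies farthest to the right, with a median of 0.97, and the let-7 values run from -0.06 to 0.88.

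Of the miRNAs lower in siIGF2BP1, miR-146a-5p, a feedback regulator of NF-kB signalling, had the smallest adjusted p together with miR-186-5p and miR-30a-5p. Its levels were 577 and 512 in siIGF2BP1 against 996, 993 and 939 in siIGF2BP2. They were 416 and 422 in siC and 201 to 228 in siIGF2BP3, so the siIGF2BP2 libraries were the highest of the 4 groups. The difference was -0.84 ± 0.13 (adjusted p = 0.000536). Within the groups of the other source name, siIGF2BP2 was above siIGF2BP3 by 2.21 (adjusted p = 1.05e-07). Its seed mate miR-146b-5p differed the other way, at 288 and 276 against 211, 216 and 173 (0.50 ± 0.15, adjusted p = 0.0465). That call did not pass under any of the 6 other scalings and tools, where its difference ran from -0.19 (upper quartile) upwards, nor without any 1 of the 5 libraries (adjusted p from 0.0667 to 0.181). The sum of the pair was 865 and 788 against 1207, 1209 and 1112, and so was lower in siIGF2BP1.

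The abundant miR-30a-5p, known to restrain epithelial-mesenchymal transition and autophagy, was at 42392 and 43986 against 61265, 66175 and 63068. Its siC values were 54269 and 49634 and its siIGF2BP3 values 43140 to 47226, so that siIGF2BP2 was again the highest group. The difference was -0.56 ± 0.08 (adjusted p = 0.000536). The other arm, miR-30a-3p, was at 2453 and 2654 against 4121, 3427 and 3422 (-0.51 ± 0.13, adjusted p = 0.0229), and missed the threshold without siIGF2BP1 replicate 1 (0.198), siIGF2BP1 replicate 2 (0.104) or siIGF2BP2 replicate 1 (0.0765). Its siC values were 2885 and 3057 and its siIGF2BP3 values 2339 to 3093. Among the seed mates of miR-30a-5p, miR-30c-5p differed by -0.30 (adjusted p = 0.0668) and miR-30e-5p by 0.33 (adjusted p = 0.291). The summed level of these 3 was 52318 and 54098 against 71105, 76815 and 73656. That sum left out miR-30d-5p and miR-30b-5p of the miR-30 family, so it is not the level of the whole family. Neither of them passed or was lower, with differences of 0.08 (adjusted p = 0.678) for miR-30d-5p and 0.13 (adjusted p = 0.705) for miR-30b-5p. The tumour-associated miR-186-5p was at 3658 and 3497 against 5542, 5730 and 5617, with siC at 4186 and 4525 (-0.65 ± 0.10, adjusted p = 0.000536).

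The larger falls were among rarer miRNAs. The passenger arm miR-31-3p was at 8.84 and 12.3 against 35.4, 40.1 and 20.7, with siC at 28.0 and 38.6 (-1.48 ± 0.40, adjusted p = 0.0277). It passed without siIGF2BP2 replicate 3 but not without any other of the 5 libraries (adjusted p from 0.0765 to 0.249). Its guide arm miR-31-5p did not differ beyond the spread, at 3062 and 3236 against 3073, 2810 and 3274. From an intron of UGT8 (MIR577 at chr4:114656759-114656854, plus strand, GRCh38.p14), miR-577 was at 20.9 and 18.5 against 45.3, 57.3 and 43.2, with siC at 31.3 and 43.9 (-1.25 ± 0.26, adjusted p = 0.00565). Without siIGF2BP1 replicate 2 its adjusted p was 0.0547. The levels of miR-3689f were 20.9 and 22.04 against 43.9, 47.7 and 39.7, with siC at 46.2 and 38.6 and siIGF2BP3 at 51.1 to 63.9, so that siIGF2BP1 alone was low (-0.99 ± 0.23, adjusted p = 0.0109). The levels of miR-330-5p were 56.2 and 53.8 against 87.7, 89.7 and 91.5, with siC at 74.2 and 81.2 and siIGF2BP3 at 55.9 to 80.9 (-0.70 ± 0.20, adjusted p = 0.0391), and its call was lost without any 1 of the 5 libraries (adjusted p from 0.0808 to 0.162).

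The other miRNAs lower in siIGF2BP1 differed by less. Part of the cluster of miR-183, miR-96 and miR-182, which is known from sensory organs, miR-182-5p was at 5242 and 5532 against 7491, 6721 and 6755 (-0.37 ± 0.10, adjusted p = 0.025), and below siC too, at 7892 and 8006 there. The other measured members of its cluster, miR-183-5p and miR-96-5p, were at -0.27 (adjusted p = 0.165) and -0.56 (adjusted p = 0.520). The CDKN1B-targeting miR-221-3p was at 29372 and 30595 against 40861, 36133 and 46660 (-0.45 ± 0.12, adjusted p = 0.0282), whereas its seed mate and neighbour miR-222-3p was at 48934 and 47897 against 46698, 46013 and 44526 (0.08 ± 0.08, adjusted p = 0.662). The collagen-repressing miR-29a-3p was at 4867 and 4919 against 6372, 6281 and 6817 (-0.41 ± 0.10, adjusted p = 0.0123). The siC and siIGF2BP3 levels were 35581 to 49702 for miR-221-3p and 5903 to 7153 for miR-29a-3p, above siIGF2BP1 in every library. The miR-29 list had 1 of 5 members called, against 2 in edgeR and in DESeq2, and a median of -0.41. Further calls were miR-196b-5p (-0.55 ± 0.12, adjusted p = 0.0101), miR-125b-1-3p (-0.50 ± 0.12, adjusted p = 0.0114), miR-130a-3p (-0.48 ± 0.13, adjusted p = 0.0277) and miR-191-5p (-0.31 ± 0.09, adjusted p = 0.0391). Without siIGF2BP1 replicate 2 the adjusted p of the 7 miRNAs called in this paragraph ranged from 0.061 (miR-196b-5p) to 0.157 (miR-221-3p). Without siIGF2BP1 replicate 1 that of miR-182-5p, miR-221-3p, miR-29a-3p, miR-130a-3p and miR-191-5p ranged from 0.0704 to 0.225. Without siIGF2BP2 replicate 1 that of miR-182-5p, miR-221-3p and miR-191-5p was 0.0808, 0.064 and 0.127, and without replicate 2 that of miR-130a-3p and miR-191-5p was 0.0944 and 0.0725. Without siIGF2BP2 replicate 3 that of miR-29a-3p was 0.0577, of miR-130a-3p 0.0648, of miR-182-5p 0.0518, of miR-191-5p 0.0822 and of miR-221-3p 0.109.

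For 60 hairpins both arms met the minimum, and for 44 of these the differences of the arms had the same sign. Both arms were called in the same direction for 5 hairpins: miR-27b, miR-181c, miR-424 and miR-25 were higher and miR-30a was lower. For 14 hairpins 1 arm was called, for 41 neither was, and for 0 were the arms called in opposite directions. The largest gaps between arms with a call were those of miR-27b, where the 5p arm exceeded the 3p arm by 1.63 on the log2 scale, miR-31, by 1.52, and miR-181c, by 1.26. In miR-181a the 3p arm exceeded the 5p arm by a log2 difference of 1.06, written as -1.06 for 5p minus 3p. The median absolute gap over the 60 was 0.26. In the miR-25 hairpin, part of the miR-106b-25 cluster in MCM7, miR-25-5p was at 170 and 157 against 67.9, 82.1 and 74.2 (1.12 ± 0.19, adjusted p = 0.00139). Its guide miR-25-3p was at 5541 and 6938 against 4607, 3599 and 3987 (0.62 ± 0.13, adjusted p = 0.00586), and was at 0.45 without siIGF2BP1 replicate 2 (adjusted p = 0.119) and at -0.08 under upper-quartile rescaling. The siIGF2BP3 values of miR-25-3p, 5476 to 6352, overlapped those of siIGF2BP1.

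**Figure D5:**
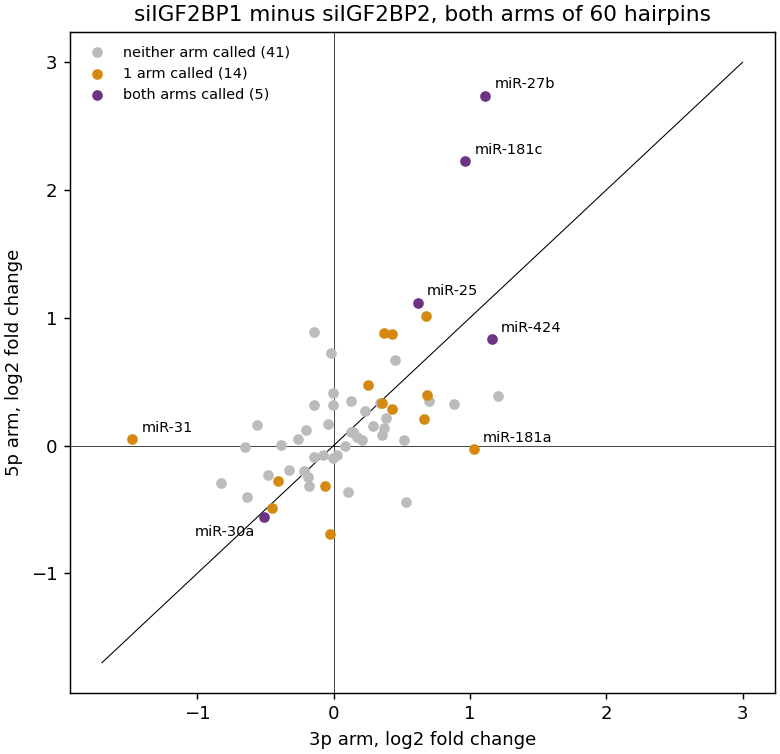
Log2 difference of siIGF2BP1 minus siIGF2BP2 for the 3p arm (x axis) and the 5p arm (y axis) of the 60 hairpins with both arms measured, coloured by the number of arms called. Most points lie near 0 on both axes, and miR-27b, at 1.11 and 2.74, lies farthest to the upper right with miR-181c, at 0.97 and 2.22.

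Set beside siC and siIGF2BP3, the called miRNAs fell into a few orders. By distance between log2(mean + 1) values, 26 of the 39 higher in siIGF2BP1 had the means of both siC and siIGF2BP3 nearer to siIGF2BP2, as for miR-210-3p and both arms of miR-424 and miR-27b. For 9 the siC mean was nearer to siIGF2BP1 and the siIGF2BP3 mean nearer to siIGF2BP2, as for miR-143-3p, miR-126-5p, miR-592, miR-23b-3p, miR-148a-3p, miR-340-5p, miR-181d-5p and both arms of miR-181c. For miR-98-5p and miR-484 both were nearer to siIGF2BP1, and for both arms of miR-25 the siIGF2BP3 mean alone was. Of the 15 lower, both means were nearer to siIGF2BP2 for 7. Both were nearer to siIGF2BP1 for 4, namely miR-146a-5p, miR-30a-5p, miR-30a-3p and miR-191-5p, the miRNAs in which siIGF2BP2 stood apart. For miR-186-5p, miR-196b-5p and miR-130a-3p the siC mean alone was nearer to siIGF2BP1, and for miR-330-5p the siIGF2BP3 mean alone.

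The comparisons within a source name share libraries with the main one, so their values are given only side by side. Against siC, 17 of the 279 were higher and 3 lower in siIGF2BP1, where 2.14% and 0.337% of all tested miRNAs were (2.47% in either direction). Examples in that comparison are miR-424-3p (1.88), miR-210-3p (2.60), miR-10a-5p (0.65) and miR-148a-3p (-2.12). Between siIGF2BP2 and siIGF2BP3, 15 were higher in siIGF2BP2 and 11 lower, where 1.69% and 1.46% of all tested were (3.15% in either direction). Higher in siIGF2BP2 in that comparison were miR-146a-5p (2.21), miR-30a-5p (0.50) and miR-191-5p (0.55), and also miR-21-5p (0.68) and miR-181a-5p (1.05).

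The remaining calls, all on the higher side, were miR-1468-5p (1.38), miR-340-5p (1.02), miR-181c-3p (0.97), miR-874-3p (0.95), miR-152-5p (0.88), miR-671-3p (0.66), miR-629-5p (0.53), miR-484 (0.49) and miR-151a-3p (0.43). Of these, miR-484 is made without Drosha and its siC and siIGF2BP3 levels, 757 to 1048, overlapped the siIGF2BP1 levels of 974 and 862. Each of these 9 missed the threshold when either siIGF2BP1 replicate was left out, except miR-151a-3p without siIGF2BP1 replicate 1, with adjusted p values from 0.0559 to 0.342. All of them but miR-671-3p also missed it without 1 or more of the siIGF2BP2 libraries (adjusted p from 0.0507 to 0.141). Under the 6 other scalings and tools, miR-181c-3p, miR-629-5p and miR-151a-3p passed in none, with DESeq2 adjusted p values of 0.295, 0.278 and 0.351. The call was lost in 5 of the 6 for miR-484, in 4 for miR-340-5p and miR-152-5p, in 3 for miR-1468-5p and miR-874-3p, and in 1, the upper quartile, for miR-671-3p. The differences of miR-671-3p, miR-629-5p, miR-484 and miR-151a-3p turned negative under upper-quartile rescaling.

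Other lists held few or no calls. In the cluster of miR-532, miR-500, miR-502 and miR-660, 0 of 5 measured members passed in limma (median -0.27), with 1 at an unadjusted p under 0.05 and 1 called by edgeR and by DESeq2. In the miR-378 family 0 of 3 passed in limma, edgeR or DESeq2, and 0 had an unadjusted p under 0.05. In the miR-99, miR-100 and miR-125 families 1 of 10 passed, against 2 in edgeR and in DESeq2. The inflammation list had 1 of 3 higher (miR-146b-5p) and 1 lower (miR-146a-5p), while miR-155-5p was at 5699 and 4664 against 6074, 6016 and 6663 (-0.28, adjusted p = 0.160). Of 12 measured entries whose sequence overlaps other small RNAs, 0 passed in limma or DESeq2, 1 passed in edgeR and 2 had an unadjusted p under 0.05. Among them miR-1291 showed the widest spread, at 420 and 1305 against 491, 6436 and 7340, so its difference of -1.94 did not pass (adjusted p = 0.216).

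Length and base content were compared between called and other miRNAs. Among those with a sequence, the median GC content was 45.5% for the 38 higher, 46.6% for the 12 lower and 50% for the 194 not called, and the median length was 22 nucleotides in each. Uridine was the first base, the one bound by Argonaute, in 17 of 38, 8 of 12 and 81 of 194. Across the 244 miRNAs, which share the libraries and are not independent, GC content and the log2 difference had r = 0.0012 and rho = 0.022. The lower miRNAs were the more abundant, with a median mean level of 1657 over the 5 libraries against 233 for the higher and 95.3 for those not called.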

How the data were processed

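Total RNA was made into size-selected, barcoded small RNA libraries with an Illumina TruSeq kit, per the labels' protocols. The tools edgeR 3.12, featureCounts 1.4.6, Bowtie2 2.2.4 and cutadapt 1.6 and the build hg19 are listed, without settings, in the submitters' processing notes. No source used here gives the scaling or the release of the miRNA annotation. Each library column is a normalised signal deposited by the authors, with no coordinates. The authors' deposited log2 fold changes and p-values of each knockdown against siC were not used. All library values (100%) were whole multiples of 1 read within 0.01 reads, so reads were recovered (1 read was worth 0.803 to 2.00).

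Rows of 1 mature miRNA were summed (2794 rows, of which 218 were further genomic copies). limma 3.58.1 (R 4.3.3) with an intensity trend was run on log2(value + 1), for the 889 miRNAs that reached 1 in 2 or more libraries. The 4 groups shared a fit, and p-values were adjusted by Benjamini-Hochberg (threshold 0.05). Differences of rare miRNAs are understated on this scale. Each adjusted p is from this fit unless edgeR 4.0.16 (quasi-likelihood) or DESeq2 1.42.0, run on recovered reads, is named. The scripts were tested on simulated data. The 2 control columns were tied to their group but not to single samples, so they carry no number.

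Named miRNAs are the 12 largest called differences each way, the 10 most abundant and up to 4 from each of 35 lists (122), and 12 other called miRNAs chosen after their values were seen. The members and lists were chosen with earlier results of these data known. Alternatives were pseudocounts of 0.1 and 5, scalings, filters, tools, a replicate block, a threshold of 0.01, a minimum of 50, the first genomic copy alone, the compared groups alone, and leaving out each library. Mature sequences came from RefSeq and host genes from GENCODE 29.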

Additional observations from a re-analysis of the deposited data

How the results depend on the processing

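The 39 higher and 15 lower calls stayed within 1.5 times of these counts with pseudocounts of 0.1 (39 and 15) and 5 (38 and 15), with no filter (35 and 13), with a mean of at least 10 (52 and 19), in the compared groups alone (38 and 17) and with the first genomic copy alone (39 and 16). Median-of-ratios scaling gave 26 and 24, the upper quartile 11 and 101, edgeR 29 and 27, DESeq2 25 and 24, a threshold of 0.01 22 and 4, and a minimum mean of 50 left 25 and 12. Leaving out 1 library gave 16 to 32 higher and 5 to 12 lower, the fewest without siIGF2BP1 replicate 2; with 1 siIGF2BP1 library left, it is assumed to vary like the other groups. Deviations from the group means correlated at -0.20 to 0.12 between same-numbered libraries and at -0.20 to 0.20 between differently numbered ones. With 2 or 3 libraries per group, these values cannot show whether the replicate numbers pair the samples. The replicate block, fitted to the knockdown libraries alone, gave 25 higher and 7 lower against 38 and 13 without it. The cause of these changes was not tested, except that a stricter threshold cannot give more calls. Under upper-quartile rescaling many named differences turned negative, among them these 28: let-7a-5p -0.66, let-7f-5p -0.49, let-7i-5p -0.48, miR-98-5p -0.30, miR-10a-5p -0.22, miR-10b-5p -0.60, miR-125a-5p -0.54, miR-146b-5p -0.19, miR-151a-3p -0.27, miR-16-5p -0.55, miR-181a-2-3p -0.092, miR-199b-3p -0.67, miR-21-5p -0.56, miR-22-3p -0.34, miR-222-3p -0.62, miR-25-3p -0.080, miR-26a-5p -0.34, miR-26b-5p -0.64, miR-28-5p -0.59, miR-30d-5p -0.61, miR-31-5p -0.65, miR-320a -0.57, miR-378a-3p -0.57, miR-425-5p -0.69, miR-484 -0.20, miR-629-5p -0.16, miR-671-3p -0.037 and miR-93-5p -0.65. Some small differences turned negative in other settings too, such as that of miR-26b-5p, from 0.060 to -0.022 (TMM) and -0.14 (edgeR). No called difference changed sign outside upper-quartile rescaling. Depth limits the rarest miRNAs most, since 1 read was worth up to 1.91 in siIGF2BP2.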

Other observations

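The miRNAs that reached a mean of 10 in siIGF2BP1 alone were mostly ones nearly unread in siIGF2BP2. Of these 61, 33 had at most 3 reads over the 3 siIGF2BP2 libraries and 22 had 0, while 40 had a siC mean of at least 10. They include 20 of the imprinted 14q32 miRNAs. The placental and neural miR-127-3p was at 463 and 1113 in siIGF2BP1 and at 4.24, 1.91 and 12.1 in siIGF2BP2, with a siC mean of 1342. miR-381-3p had a mean of 247 in siIGF2BP1 and 0 reads in siIGF2BP2. Of the 10 that reached the mean in siIGF2BP2 alone, 0 passed in limma, edgeR or DESeq2, and 3 had an unadjusted p under 0.05.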
